A study of Mus musculus with 6 samples.

Results

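The proteasome subunit genes examined here are the 47 genes whose symbol in the count table is Psm followed by 1 letter from a to g and a number, of 22966 genes in the table. All 47 passed the filter on low counts, among 14795 genes tested. They comprise 7 core alpha genes and the testis alpha gene Psma8, 4 non-catalytic and 3 constitutive catalytic beta genes, and the 3 immunoproteasome genes Psmb8, Psmb9 and Psmb10. The regulatory particle is represented by 6 ATPase genes, 3 other base genes and 8 lid genes. The remaining members are 3 base assembly chaperones, 4 activators (Psme1 to Psme4), the inhibitor Psmf1 and 4 core assembly chaperones (Psmg1 to Psmg4).

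RNA was sequenced from primary hepatic stellate cells, the retinoid-storing pericytes of the liver that turn into collagen-producing cells after injury, in a mouse study of butyrylcholinesterase. There were 3 libraries titled Cre and 3 titled flox. All 6 carry the genotype entry BucheHep and a treatment entry for CCl4, a hepatotoxin used to produce liver fibrosis, and only the titles separate the groups. Not given in the sources used here are the driver of Cre, the ages, the time after CCl4 and the animals behind each library, so p-values measure only how these samples vary, which may be technical.

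The proteasome degrades ubiquitin-tagged proteins in a barrel of stacked alpha and beta rings, opened and fed by a regulatory particle with an ATPase base and a lid. Interferon, mainly interferon gamma, induces Psmb8, Psmb9 and Psmb10, which take the places of the constitutive catalytic subunits Psmb5, Psmb6 and Psmb7 in newly built particles, and also Psme1 and Psme2, the subunits of the PA28 activator ring. Particles with these subunits cut peptides suited to MHC class I, and cells of haematopoietic origin, such as macrophages, carry many of them without an added stimulus.

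The libraries held 37273142 to 41006722 counts. Bche, the butyrylcholinesterase gene, had 15, 8 and 2 counts in Cre and 17, 6 and 21 in flox, so its level gives no check of the titles (log2 fold change -0.88 ± 0.80 SE, edgeR adjusted p = 0.467). Markers of macrophages differed far more than any proteasome gene. Their summed level over 15 genes was 3490, 3503 and 4159 CPM (TMM-normalised counts scaled to library size) in Cre and 23677, 29740 and 9782 CPM in flox, with 14 of the 15 lower in Cre, a median log2 fold change of -2.98 and no marker at 0 in any library. The 5 general leukocyte markers summed to 447, 397 and 538 CPM in Cre and 2363, 3021 and 949.9 CPM in flox, and all 5 were lower. The 12 stellate markers had counts in every library and summed to 1944, 2429 and 3160 CPM in Cre and 2395, 1395 and 1099.6 CPM in flox, with 2 higher in Cre and none lower. Dcn, Col1a1 and Col3a1 had the highest mean CPM of these in both groups, so the sum rests largely on them. Lrat was low, at 41, 7 and 31 counts in Cre and 95, 84 and 5 in flox. Library flox 3 stood apart from the other flox libraries in both the macrophage and the leukocyte list. It also stood apart in the 6 endothelial markers, which summed to 1783, 2853 and 2088 CPM in Cre and 1320, 1063 and 3407 CPM in flox, and in the 6 hepatocyte markers, with 202, 50.6 and 296 CPM in Cre and 161, 276 and 569 CPM in flox. Called genes are therefore also given without flox 3. Without it, 15 of 15 macrophage and 5 of 5 leukocyte markers were lower, 2 of 12 stellate markers were higher, 2 endothelial markers were higher and 1 lower, and 1 of 2 tested dendritic markers was lower. Of the other lists with all 6 libraries, 1 of 6 endothelial and 1 of 2 tested dendritic markers were lower in Cre, and none of 6 hepatocyte, 5 mesothelial, 5 T and NK or 2 tested B cell markers passed the test. Not passing does not show these lists to be alike. The median log2 fold change was 1.28 for mesothelial (0 of 5 negative), -1.41 for hepatocyte (5 of 6 negative), -0.48 for T and NK and -0.78 for B cell markers. In bulk RNA, fewer cells of a type and less RNA per cell cannot be told apart.

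Most proteasome genes differed little between the groups, and the larger log2 fold changes were not confined to the interferon-inducible genes. Outside the inducible genes the largest were -0.49 (Psmg4), 0.36 (Psmg1), -0.35 (Psme4), -0.33 (Psmb6) and 0.31 (Psmg2). By edgeR's quasi-likelihood test at an adjusted p below 0.05, 3 of 47 members were lower in Cre, Psmb8, Psmb9 and Psme1, where 8.94% of all genes tested were called lower. None was higher, where 6.35% of all genes were, and 2 members were higher at an unadjusted p below 0.05, a share not counted for all genes. DESeq2 called 6 members lower (15.9% of all genes) and 1 higher (13.4%), and edgeR without flox 3 called 6 lower (18.8%) and none higher (16.0%). The share of members called was not above the background in either direction in these 3 analyses. The median log2 fold change, Cre over flox, was -0.01 for the members and 0.01 for all genes, and 37 of 47 members (78.7%) lay within 0.25 of 0, a change of up to 18.9%, against 36.0% of all genes. The median absolute log2 fold change was 0.10 for the members and 0.39 for all genes. All genes tested were not matched to the members in level, so these shares do not show whether the members were unusually even. Scaling to library totals moved the median of all genes by 0.16 and the median of the members to 0.14, so small differences are read relative to all genes.

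**Figure D1:**
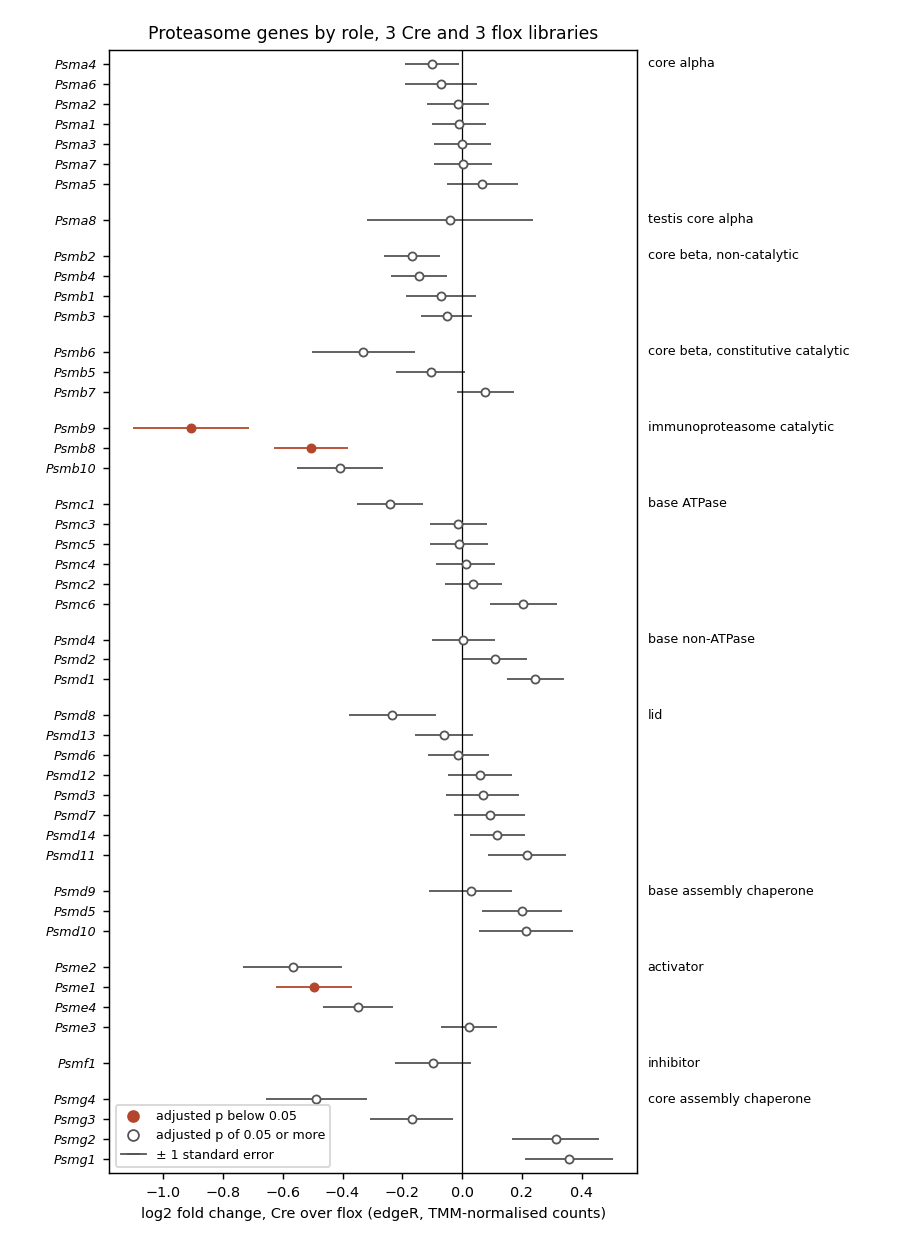
Log2 fold change, Cre over flox, of each proteasome gene from edgeR on TMM-normalised counts, grouped by role, with bars of ± 1 standard error and filled points for adjusted p below 0.05. The 3 filled points are Psmb9, Psmb8 and Psme1, while the alpha, ATPase and lid genes sit around 0.

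Of the 3 immunoproteasome catalytic genes 2 were called lower in Cre, Psmb9 and Psmb8, where 8.94% of all genes tested were. Psmb9 had the largest log2 fold change of all 47 members. Psmb9, which replaces the caspase-like subunit Psmb6, was measured at 40.2, 33.9 and 46.9 CPM in Cre and 84.9, 84.1 and 57.9 CPM in flox. Every Cre library was below every flox library, and flox 3 was the lowest of the flox libraries. Psmb9 fell by 0.91 on the log2 scale (± 0.19 SE, edgeR adjusted p = 0.0316) to a mean of 40.3 ± 6.49 CPM in Cre, against 75.6 ± 15.4 CPM in flox (SD, n = 3 each). It was called in 11 of 16 alternative analyses. Leaving out 1 library kept its log2 fold change between -1.06 (without flox 3, edgeR adjusted p = 0.00397) and -0.77 (without Cre 2, adjusted p = 0.101), and the call was lost without Cre 1, Cre 2, flox 1 or flox 2, where the adjusted p reached 0.125.

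Psmb8, which replaces the chymotrypsin-like subunit Psmb5, was at 202, 206 and 228 CPM in Cre and 338, 298 and 266 CPM in flox. The groups again did not overlap, and flox 3 was closest to Cre. Psmb8 fell by 0.51 (± 0.12 SE, edgeR adjusted p = 0.0429) to 212 ± 13.9 CPM in Cre, against 301 ± 36.2 CPM in flox. This call was close to the threshold and was kept in 4 of 16 alternatives. Without flox 3 the log2 fold change was -0.58 (edgeR adjusted p = 0.00937), and without any 1 of the other 5 libraries it was -0.40 to -0.54 and not called (adjusted p of 0.0681 to 0.173).

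Psmb10, which replaces the trypsin-like subunit Psmb7, was at 106, 116 and 142 CPM in Cre and 179, 157 and 148 CPM in flox. Its groups did not overlap, but they came near each other in Cre 3 and flox 3, and the log2 fold change of -0.41 ± 0.14 SE did not pass the test (edgeR adjusted p = 0.0979, and 0.0537 without flox 3). It was called in 0 of 16 alternatives. All 3 immunoproteasome genes kept a negative log2 fold change in every alternative run, library totals included.

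The constitutive catalytic genes did not pass the test. Psmb5 was at 129.7, 116 and 142 CPM in Cre and 148, 139 and 130.3 CPM in flox (log2 fold change -0.11 ± 0.11 SE, edgeR adjusted p = 0.544, turning to 0.05 with library totals). Psmb7 was at 133, 129 and 125 CPM in Cre and 127, 113 and 127 CPM in flox (0.08 ± 0.10 SE, adjusted p = 0.596). The groups overlapped for both genes. Psmb6 was at 112, 112 and 131 CPM in Cre and 175, 156 and 115 CPM in flox (-0.33 ± 0.17 SE, adjusted p = 0.222). Its flox 3 value lay within the Cre range, and without that library Psmb6 was called lower (-0.48, adjusted p = 0.0207). Psmb6 was called in 1 of 16 alternatives, and leaving out 1 library gave an edgeR adjusted p of up to 0.562.

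**Figure D2:**
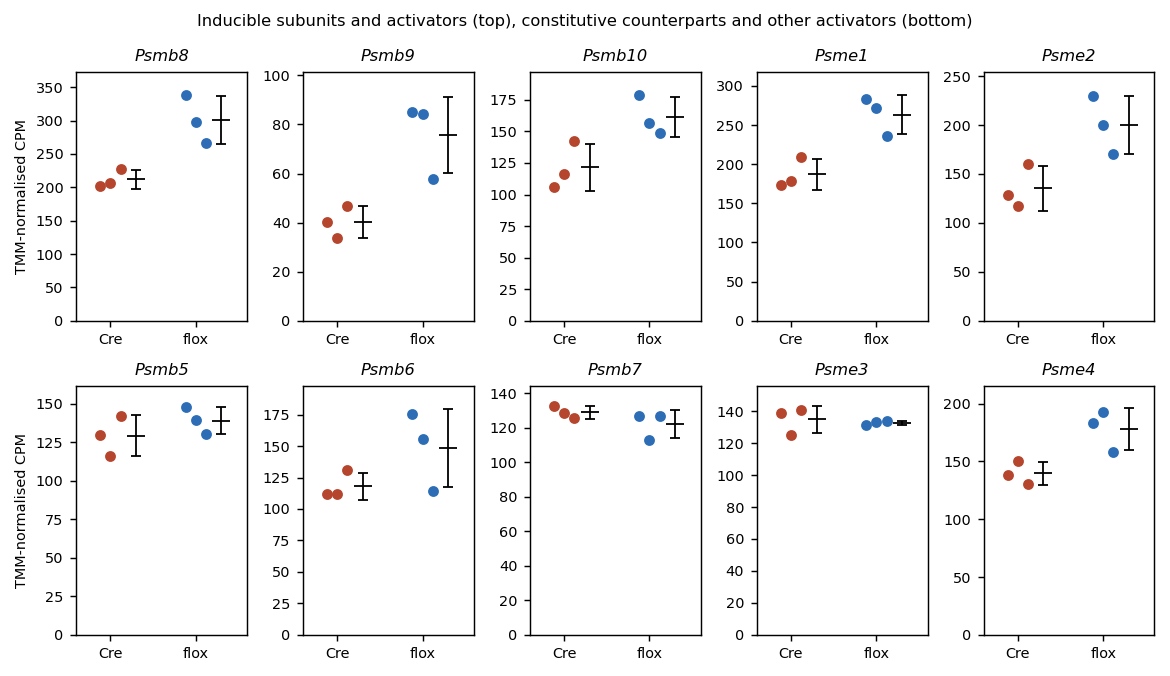
TMM-normalised CPM in each Cre and flox library, with the mean ± SD over 3 libraries, for the inducible genes in the top row and the constitutive catalytic genes, Psme3 and Psme4 in the bottom row. In the top row the Cre points lie below the flox points in each panel, while Psmb5, Psmb7 and Psme3 overlap.

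The ratio of an inducible subunit to the one it replaces was taken within each library from FPKM, the deposited values per length, so that neither depth nor composition scaling enters. Psmb8 over Psmb5 was 1.11, 1.27 and 1.14 in Cre and 1.63, 1.52 and 1.45 in flox, a difference in mean log2 ratio of -0.39 ± 0.08 (SE, n = 3 each). Psmb9 over Psmb6 was 0.316, 0.265 and 0.315 in Cre and 0.425, 0.473 and 0.443 in flox, a difference of -0.58 ± 0.10 (SE). Psmb10 over Psmb7 was 0.665, 0.751 and 0.944 in Cre and 1.17, 1.16 and 0.974 in flox, a difference of -0.49 ± 0.17 (SE). In all 3 ratios every Cre library was below every flox library. Each gave a two-sided exact permutation p = 0.1, unchanged by Benjamini-Hochberg adjustment over the 3 ratios, which is the smallest p that 3 libraries against 3 can give, so this test could not pass 0.05. For Psmb9 over Psmb6 library flox 3 lay between the other flox libraries, unlike in the levels of the individual genes.

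**Figure D3:**
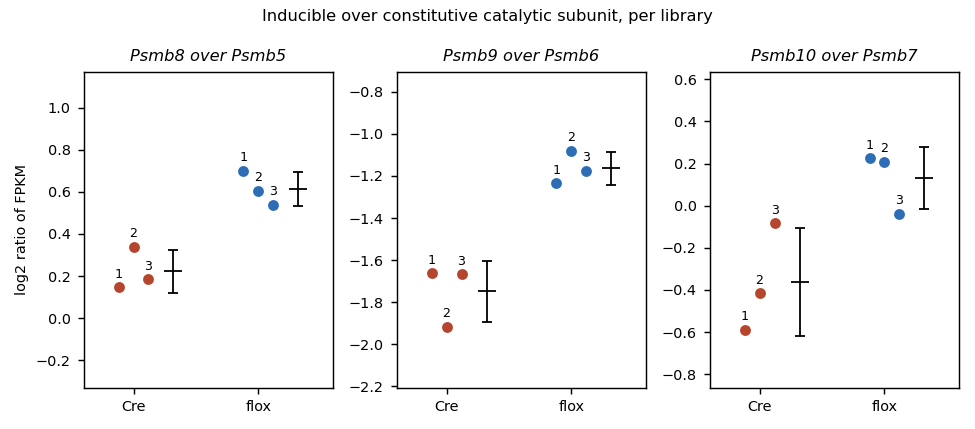
Log2 ratio of FPKM of each inducible catalytic gene over its constitutive counterpart in each library (numbered by replicate), with the mean ± SD over 3 libraries. Cre lies below flox in each panel, and the groups come closest for Psmb10 over Psmb7, where Cre 3 had a ratio of 0.944 and flox 3 a ratio of 0.974.

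In level per length, Psmb8 had the highest FPKM of the 6 catalytic genes in both groups, at 183 ± 9.09 in Cre and 232 ± 21.4 in flox, and Psmb9 the lowest, at 33.2 ± 5.01 in Cre and 55.5 ± 8.7 in flox (SD, n = 3 each). Psmb5 was at 157 ± 14.6 FPKM in Cre and 151 ± 6.58 FPKM in flox. Psmb7 was at 129 ± 5.66 FPKM in Cre and 109.7 ± 12.3 FPKM in flox, and Psmb10 at 101 ± 13.9 FPKM in Cre and 120.0 ± 9.72 FPKM in flox. The order of Psmb10 and Psmb7 thus differed, with Psmb7 the higher in all 3 Cre libraries and Psmb10 the higher in 2 of 3 flox libraries. Psmb6 was at 111 ± 8.46 FPKM in Cre and 124 ± 21.1 FPKM in flox, where its spread covered the levels of Psmb10 and Psmb7. FPKM carry no composition factor, so these values are levels and not tests between groups.

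Exons of 4 of the 6 catalytic genes overlap those of another gene, so their counts can hold reads of a neighbour. In GENCODE M21 (GRCm38), Psmb9 lies on the minus strand of chr17:34181987-34187764 and Psmb8 on the plus strand of chr17:34197721-34201454, with 9956 bases between them. Tap1, a subunit of the transporter that carries proteasome peptides to MHC class I, lies between them on the plus strand at chr17:34187553-34197225, and its exons overlap those of Psmb9. The RefSeq starts of Psmb9 and Tap1 are divergent, with 225 bases between them. Tap1 was at 255, 254 and 303 CPM in Cre and 333, 291 and 369.5 CPM in flox, which overlap (log2 fold change -0.29 ± 0.13 SE, edgeR adjusted p = 0.176). No source used here states whether reads were counted by strand, so those in the shared stretch cannot be told apart, and likewise for Psmb8 and the antisense gene Gm20496. Of the constitutive partners, Psmb7 overlaps Nek6 on the other strand and Psmb5 overlaps the microRNA gene Mir686 on the same strand, and Psmb6 overlaps none. Psmb10 (minus strand, chr8:105935735-105938444) overlaps no annotated exon of another gene. The coding sequences of the inducible and constitutive partners are not near-identical copies, with 65.3% identity between Psmb8 and Psmb5, 63.4% between Psmb9 and Psmb6 and 62.8% between Psmb10 and Psmb7. Exons of 13 of the 47 members overlap another gene.

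Sequences before the RefSeq start sites are printed for Psmb9 and Psmb8, the lower catalytic genes, and for Psmb6 and Psmb5, whose places they take, to show which textbook control motifs stand there. For Psmb9 and Psmb8 the printed stretch lies inside the GENCODE M21 extent of the gene itself, so it precedes the RefSeq start but not the outermost GENCODE start. The sequences are from RefSeq (GRCm38.p6), which held 39 of the 47 members, each written 5′ to 3′ on the gene's strand within the 250 bases before its RefSeq start and without annotated exon bases, or cut to 30 bases around a match where the whole window is exonic. Capitals mark a motif match: the CCAAT box (read as ATTGG on the other strand) in Psmb9, TTCNNNGAA, the gamma-activated site, in Psmb8, and TGACNNNGC, the core of the antioxidant response element bound by NRF1 and NRF2, in Psmb6 and Psmb5.
Psmb9, chr17:34187331-34187360, minus strand: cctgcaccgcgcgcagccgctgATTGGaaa
Psmb8, chr17:34198088-34198117, plus strand: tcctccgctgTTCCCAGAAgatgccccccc
Psmb6, chr11:70525107-70525356, plus strand: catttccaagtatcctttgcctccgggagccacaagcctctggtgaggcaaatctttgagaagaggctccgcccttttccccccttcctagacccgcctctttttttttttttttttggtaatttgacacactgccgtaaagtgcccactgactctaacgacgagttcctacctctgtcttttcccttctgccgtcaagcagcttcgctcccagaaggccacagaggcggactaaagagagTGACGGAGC
Psmb5, chr14:54618023-54618245, minus strand: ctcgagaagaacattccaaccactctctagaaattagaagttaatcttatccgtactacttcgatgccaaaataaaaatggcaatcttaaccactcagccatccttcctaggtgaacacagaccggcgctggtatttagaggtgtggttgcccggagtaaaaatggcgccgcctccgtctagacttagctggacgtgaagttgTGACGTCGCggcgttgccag

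Their frequency in the proteasome genes was set beside that in all promoters of the same length, searched on both strands. TTCNNNGAA stood in 2 of 39 members (5.13%, Psmb8 and Psmg1) and in 8.13% of 27025 genes. TGACNNNGC stood in 5 members (12.8%; Psmb5, Psmb6, Psmc6, Psmd12 and Psmd9) and in 11.5% of all genes, and CCAAT in 13 members (33.3%) and 37.5% of all genes. The core of the interferon-stimulated response element, GAAA and GAAA with 2 bases between, stood in 3 members (7.69%; Psmb3, Psmd4 and Psmd9), none of them inducible, and in 3.46% of all genes. Of the 5 inducible members, only Psmb8 (TTCNNNGAA) and Psmb9 (CCAAT) had a match, and Psme1, also called lower and not printed, had none. A match is a description of letters and not a site of binding.

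Of the 4 activator genes 1 was called lower, Psme1, where 8.94% of all genes tested were. The groups did not overlap for Psme1, Psme2 and Psme4, each lower in Cre, as in 20.0% of all genes. Psme1, the PA28 alpha subunit, was at 173, 178 and 209 CPM in Cre and 283, 272 and 235 CPM in flox. The groups did not overlap, and Psme1 fell by 0.49 on the log2 scale (± 0.13 SE, edgeR adjusted p = 0.0452) to 187 ± 19.5 CPM in Cre, against 263 ± 24.8 CPM in flox (SD, n = 3 each). The call was near the threshold and was kept in 4 of 16 alternatives. Without flox 3 the log2 fold change was -0.57 (edgeR adjusted p = 0.0123), and without any 1 of the other 5 libraries it was -0.42 to -0.56 and not called (adjusted p of 0.0536 to 0.185). Psme1 was also the member with the highest level per length, at 202 ± 17.9 FPKM in Cre and 254 ± 13.1 FPKM in flox. Its exons overlap those of Emc9 on the other strand.

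Psme2, the PA28 beta subunit, was at 128, 117 and 161 CPM in Cre and 229, 200.5 and 171 CPM in flox. The groups did not overlap, but the log2 fold change of -0.57 ± 0.17 SE did not pass the test (edgeR adjusted p = 0.0639). Psme2 passed in 2 of 16 alternatives, without flox 3 (edgeR adjusted p = 0.0210) and by DESeq2 (adjusted p = 0.0190). Leaving out 1 library gave an edgeR adjusted p of 0.0210 to 0.213. The coding sequence of Psme2 is 99.3% identical to that of Psme2b (715 of 720 bases), so the split of reads between them is uncertain. Psme2b itself was at 45.2, 45.2 and 57.0 CPM in Cre and 86.6, 86.0 and 58.9 CPM in flox, with the same direction as Psme2 (-0.65 ± 0.18 SE, adjusted p = 0.0586). Psme1 and Psme2 are neighbours on chromosome 14, on opposite strands, with 5911 bases between them.

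Psme3, the subunit of the nuclear PA28 gamma ring, which interferon does not induce, was at 139, 125 and 141 CPM in Cre and 131, 133 and 134 CPM in flox. The groups overlapped, with a log2 fold change of 0.02 ± 0.09 SE (edgeR adjusted p = 0.879). Psme4, the large single-chain activator PA200, was at 138, 151 and 131 CPM in Cre and 183, 193 and 158 CPM in flox. Its groups did not overlap, and its log2 fold change of -0.35 ± 0.12 SE missed the threshold (edgeR adjusted p = 0.0883). Psme4 passed in 2 of 16 alternatives, without flox 3 (edgeR adjusted p = 0.0187) and by DESeq2 (adjusted p = 0.0301). Leaving out 1 library gave an edgeR adjusted p of 0.0187 to 0.264. Psmf1, which binds the core and inhibits it in vitro, was at 36.7, 31.7 and 38.3 CPM in Cre and 34.2, 38.2 and 41.8 CPM in flox (-0.10 ± 0.13 SE, adjusted p = 0.621, turning to 0.05 with library totals).

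The 5 interferon-inducible members, Psmb8, Psmb9, Psmb10, Psme1 and Psme2, summed to 649, 652 and 787 CPM in Cre and 1114, 1011 and 878 CPM in flox. In all 5 every Cre library was below every flox library, as in 20.0% of all genes tested. Of the 5, 3 were called lower, where 8.94% of all genes were, and their median log2 fold change was -0.51. Of the other 42 members 0 were called, 21 had a positive and 21 a negative log2 fold change, and the median was -0.005. The sum over all 47 members was 5867, 5772 and 6253 CPM in Cre and 6617, 6091 and 6171 CPM in flox, which overlap. Within each group the libraries had the same order in the inducible sum as in the stellate marker sum, while in the macrophage sum Cre kept that order and flox 1 was below flox 2. Flox 3 was the lowest flox library and Cre 3 the highest Cre library in all 3 sums. Between the groups, the inducible and macrophage sums were each lower in every Cre library than in any flox library, while the stellate sums overlapped. The part of these cell types in the lower inducible genes was not tested.

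**Figure D4:**
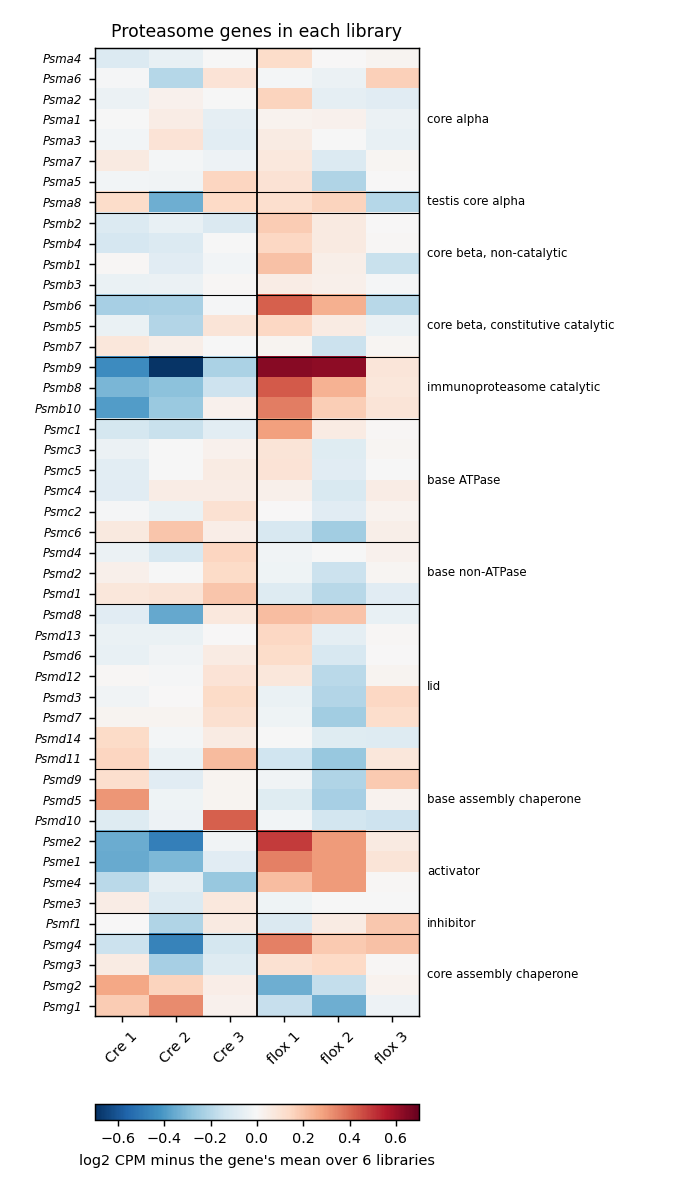
Log2 CPM of each proteasome gene in each library minus the gene's mean over the 6 libraries, with Cre libraries left and flox libraries right, in rows by role. The rows of Psmb8, Psmb9, Psmb10, Psme1 and Psme2 are bluest in Cre 1 and Cre 2 and reddest in flox 1 and flox 2, as in Psmb9 with 33.9 CPM in Cre 2 and 84.9 CPM in flox 1.

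The constitutive 26S particle, 31 genes of the rings, base and lid, differed little between the groups as a set. None of the 31 was called in either direction by edgeR with all 6 libraries, where 8.94% of all genes were called lower and 6.35% higher. The median log2 fold change was -0.01. Of the 31, 1 was at an unadjusted edgeR p below 0.05, a share not counted for all genes. Psmd1 was called higher by DESeq2, and Psmb6 was called lower by edgeR without flox 3 (-0.48, adjusted p = 0.0207). The values ran from -0.33 (Psmb6) to 0.24 (Psmd1), and 30 of 31 lay within 0.25 of 0, against 36.0% of all genes, which were not matched in level. The sums were 4697, 4626 and 4954 CPM in Cre and 4972, 4544 and 4769 CPM in flox.

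The 7 alpha genes, which form the outer rings and the gate of the core, had log2 fold changes from -0.10 ± 0.09 SE (Psma4, edgeR adjusted p = 0.468) to 0.07 ± 0.12 SE (Psma5, adjusted p = 0.719). Psma4 was at 127, 131 and 136 CPM in Cre and 149, 136 and 138 CPM in flox, groups that did not overlap by a small margin, and its sign turned with library totals (0.06). Psma5 was at 120.2, 119.9 and 135 CPM in Cre and 131, 105 and 122 CPM in flox, which overlap. Psma8, the alpha subunit of the testis proteasome, was the member of lowest level in both groups, at 1.39 ± 0.249 FPKM in Cre and 1.27 ± 0.0992 FPKM in flox. Its values of 3.25, 2.34 and 3.28 CPM in Cre and 3.23, 3.31 and 2.59 CPM in flox overlapped (-0.04 ± 0.28 SE, adjusted p = 0.935, turning to 0.12 with library totals).

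The 4 non-catalytic beta genes, which complete the inner rings, ran from -0.17 ± 0.09 SE (Psmb2, edgeR adjusted p = 0.248) to -0.05 ± 0.09 SE (Psmb3, adjusted p = 0.703, turning to 0.11 with library totals). Psmb2 was at 84.2, 86.9 and 84.1 CPM in Cre and 102, 94.3 and 90.3 CPM in flox, and the groups did not overlap. Psmb3 was at 103, 103 and 107 CPM in Cre and 109.9, 109 and 105 CPM in flox. Psmb1 and Psmb4 lay between them in log2 fold change.

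The 6 ATPase genes of the base, which unfold and thread the substrate, gave 3 positive and 3 negative log2 fold changes with a median near 0. Psmc1 was at 174, 169.9 and 180.0 CPM in Cre and 231, 197 and 191 CPM in flox (-0.24 ± 0.11 SE, edgeR adjusted p = 0.173). Psmc6 was at 159, 174 and 157 CPM in Cre and 141, 129 and 157 CPM in flox (0.20 ± 0.11 SE, adjusted p = 0.243). The groups did not overlap for either gene, Psmc6 by a narrow margin between Cre 3 and flox 3, and the other 4 ATPase genes lay between these.

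Of the base genes without ATPase activity, Psmd1, a large scaffold, was at 238, 239.7 and 257 CPM in Cre and 211, 196 and 213 CPM in flox. Each Cre library was above each flox library, and the log2 fold change was 0.24 ± 0.10 SE (edgeR adjusted p = 0.124, and 0.0447 by DESeq2). Psmd1 was called in 4 of 16 alternatives, and leaving out 1 library gave an edgeR adjusted p of 0.0632 to 0.307. Exons of Psmd1 overlap Htr2b and Gm21972. Psmd4, a receptor for ubiquitin chains, was at 139, 133 and 159 CPM in Cre and 141, 143 and 146 CPM in flox, and its log2 fold change of 0.004 ± 0.10 SE (adjusted p = 0.985) turned negative with RLE factors (-0.00041). Psmd2, the other scaffold and receptor, had the highest FPKM of these base genes, at 153 ± 5.88 in Cre and 128 ± 14.2 in flox.

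The 8 lid genes, among them the deubiquitinase Psmd14, ran from -0.23 ± 0.15 SE (Psmd8, edgeR adjusted p = 0.299) to 0.22 ± 0.13 SE (Psmd11, adjusted p = 0.281), with 5 positive and 3 negative. Psmd8 was at 175, 144 and 194 CPM in Cre and 214, 211 and 177 CPM in flox. Psmd11 was at 166, 145 and 175 CPM in Cre and 136, 124 and 158 CPM in flox. The groups overlapped for all 8 lid genes.

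**Figure D5:**
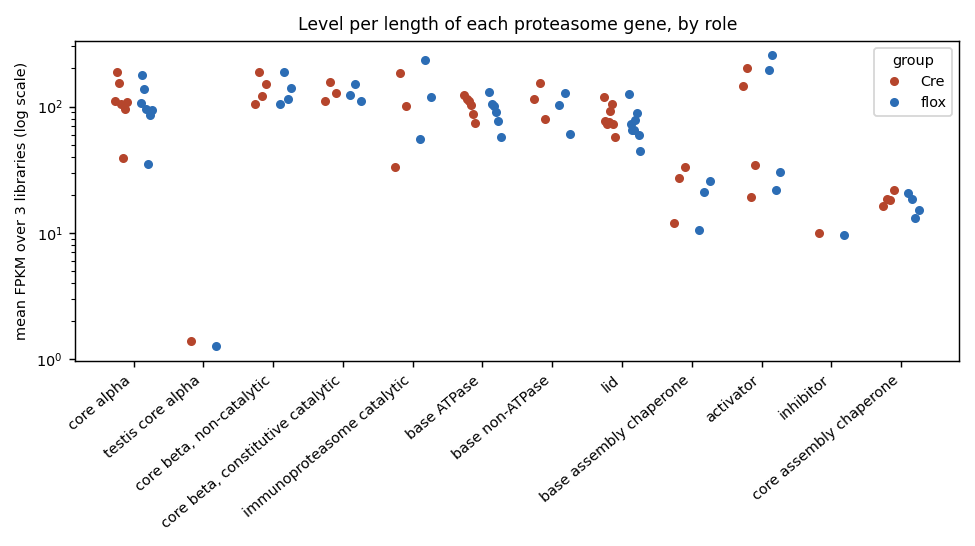
Mean FPKM over 3 libraries on a log axis for each proteasome gene, by role, Cre left of flox. Constitutive core, base and lid genes lie between 34.9 and 189 FPKM, the assembly chaperones, Psmf1, Psme3 and Psme4 lower, and Psma8 lowest at 1.39 FPKM in Cre and 1.27 FPKM in flox.

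The 7 assembly chaperones ran from 11.9 (Psmd9) to 33.3 FPKM (Psmd10) in Cre and from 10.5 (Psmd9) to 25.8 FPKM (Psmd10) in flox, below each of the constitutive 26S genes. Psmg1 and Psmg2, which form a pair that starts the alpha ring, were higher in every Cre library than in any flox library, but neither passed the test. Psmg1 was at 21.4, 23.8 and 19.3 CPM in Cre and 16.9, 14.9 and 18.5 CPM in flox (0.36 ± 0.15 SE, edgeR adjusted p = 0.139). Psmg2 was at 24.6, 22.7 and 21.0 CPM in Cre and 16.1, 18.1 and 20.7 CPM in flox (0.31 ± 0.15 SE, adjusted p = 0.178). The second pair went the other way in value. Psmg4 was at 9.16, 7.36 and 9.32 CPM in Cre and 13.0, 11.5 and 11.7 CPM in flox, groups that did not overlap (-0.49 ± 0.17 SE, adjusted p = 0.0956). It passed in 1 of 16 alternatives, DESeq2 (adjusted p = 0.0212), and leaving out 1 library gave an edgeR adjusted p of 0.0800 to 0.288. Psmg3 was at 16.7, 13.7 and 15.1 CPM in Cre and 17.3, 17.7 and 16.2 CPM in flox (-0.17 ± 0.14 SE, adjusted p = 0.419).

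The base chaperones Psmd5, Psmd9 and Psmd10 had positive log2 fold changes that did not pass the test. Psmd9 gave the lowest, 0.03 ± 0.14 SE (edgeR adjusted p = 0.901), with 31.2, 27.1 and 29.1 CPM in Cre and 28.2, 24.8 and 32.6 CPM in flox. Psmd10, also known as gankyrin, gave the highest, 0.21 ± 0.16 SE (adjusted p = 0.369), with 39.9, 41.5 and 56.6 CPM in Cre and 41.8, 38.8 and 38.4 CPM in flox. The value of Cre 3 set this difference, and without Cre 3 it was 0.06.

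Counting separation alone, 11 members had every Cre library below every flox library (Psma4, Psmb2, Psmb4, Psmb8, Psmb9, Psmb10, Psmc1, Psme1, Psme2, Psme4 and Psmg4), where 20.0% of all genes did. In the other direction 4 members separated (Psmc6, Psmd1, Psmg1 and Psmg2), where 19.6% of all genes did.

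Genes that work beside the proteasome were read from lists with known roles. Of all genes tested by edgeR, 8.94% were called lower and 6.35% higher. Without flox 3 these shares were 18.8% and 16.0%. Of 10 tested genes for other subunits and bound factors 1 was higher and none lower, with a median log2 fold change of 0.04. The higher one was Ube3c, a ubiquitin ligase on the particle that lengthens chains on stalled substrates, at 113 ± 2.39 CPM in Cre and 84.6 ± 6.46 CPM in flox (0.41 ± 0.10 SE, edgeR adjusted p = 0.0387; 0.00721 without flox 3 and 0.0769 to 0.153 without any 1 of the other libraries). Pomp, the maturation chaperone of the core that is needed for the immunoproteasome too, was at 87.1, 87.1 and 101 CPM in Cre and 141, 126 and 110.1 CPM in flox. Its groups did not overlap, but it did not pass the test (-0.46 ± 0.13 SE, adjusted p = 0.0562). Leaving out 1 library gave an edgeR adjusted p of 0.0128 (without flox 3) to 0.203, and Pomp passed in 2 of 16 alternatives. The small lid subunit Sem1 (-0.38 ± 0.15 SE, adjusted p = 0.115) and the proteasome-binding protein Zfand5 (-0.35 ± 0.13 SE, adjusted p = 0.116) did not pass either. Without flox 3, 3 genes of this list were called higher and 2 lower.

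None of the 15 genes for substrate delivery and the p97 unfoldase passed (median 0.07), and the shuttle factor Ubqln2 came nearest (0.50 ± 0.15 SE, adjusted p = 0.0706), followed by Rad23b (0.29), Zfand2a (-0.34) and Zfand2b (-0.28). Without flox 3, 2 genes of this list were called higher and 0 lower.

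NRF1, encoded by Nfe2l1, raises the transcription of proteasome subunit genes when the particle is inhibited. Of 11 genes of NRF1 and NRF2 control, 1 was lower and none higher (median -0.15). Without flox 3, 1 was lower and 1 higher. Keap1, which holds NRF2 for degradation, was at 80.0, 91.0 and 88.1 CPM in Cre and 131, 122 and 118 CPM in flox (-0.52 ± 0.10 SE, edgeR adjusted p = 0.0264; 0.00856 without flox 3 and 0.0560 to 0.126 without any 1 of the other libraries). Its exons overlap Gm16754. Nfe2l1 was at 381, 368 and 455 CPM in Cre and 325, 298 and 364 CPM in flox, and did not pass (0.29 ± 0.13 SE, adjusted p = 0.181). Maff (1.07 ± 0.42 SE, adjusted p = 0.125) and the NRF1-processing enzyme Ngly1 (-0.27 ± 0.12 SE, adjusted p = 0.174) did not pass.

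None of 11 genes of class I peptide loading passed the test with all 6 libraries (median -0.17), and 1 was called lower without flox 3. H2-D1, a class I heavy chain, was at 2944 ± 325 CPM in Cre and 3936 ± 353 CPM in flox (-0.42 ± 0.15 SE, edgeR adjusted p = 0.106), B2m gave -0.20 (adjusted p = 0.320) and the chaperone Canx 0.19 (adjusted p = 0.314). Of 14 interferon response regulators 2 were lower and none higher (median -0.34). Without flox 3, 5 were lower and 1 higher. Irf8, a transcription factor of myeloid cells, was at 75.4, 103 and 93.5 CPM in Cre and 241, 266 and 179.9 CPM in flox (-1.33 ± 0.19 SE, adjusted p = 0.0237). Stat2, which carries type I interferon signals, was at 334, 329.7 and 369.6 CPM in Cre and 469, 467 and 455 CPM in flox (-0.43 ± 0.10 SE, adjusted p = 0.0390). Without flox 3 the edgeR adjusted p was 0.00147 for Irf8 and 0.0164 for Stat2. Without any 1 of the other libraries it was 0.0366 to 0.107 for Irf8, still called without Cre 3, and 0.0646 to 0.180 for Stat2, which was not called. The interferon gamma receptor chain Ifngr2 was at 76.5, 72.7 and 109 CPM in Cre and 151, 178 and 113 CPM in flox (-0.78 ± 0.23 SE, adjusted p = 0.0621), and Jak2, a kinase of that receptor, at 317, 348 and 432 CPM in Cre and 169, 142 and 275 CPM in flox (0.91 ± 0.26 SE, adjusted p = 0.0632). Leaving out 1 library gave an edgeR adjusted p of 0.0151 to 0.207 for Ifngr2 and of 0.00373 to 0.197 for Jak2.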

How the data were processed

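Gene expression was measured by RNA sequencing in 6 libraries, grouped by their titles. The deposited count table holds raw counts per gene symbol, and a second deposited table holds FPKM values, which equal counts divided by the library total and 1 length per gene (0 of 11560 genes with over 50 counts in each library depart by over 1e-06). Libraries were made from total RNA with an mRNA kit, per the labels' protocols. Of genome builds, GRCm38, mm10 and hg38 appear in the submitters' processing notes, without a role. Not given in the sources used here are the aligner, counter, annotation and strand setting. There were 0 unused per-sample columns.

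The test of the counts used edgeR 4.0.16 (R 4.3.3): filterByExpr (minimum count 10, minimum total 15), TMM factors, the quasi-likelihood F-test (two-sided, no covariate) over 14795 genes, Benjamini-Hochberg adjustment over all of them and calls below 0.05. Standard errors were computed from the log2 fold change and the F statistic, and SDs are over 3 libraries. Ratios within a library were compared by exact permutation. A count of 3 is 0.0732 to 0.0805 CPM. The fit was tested on simulated data first. Alternatives were RLE factors, library totals, DESeq2 1.42.0, limma-voom (limma 3.58.1), other filters, FPKM with limma-trend (pseudocount 1 or 0.1), a replicate block and each library left out. Every pair of libraries differed by at least 31.7 in chi-square per gene, so none was a copy of another. All 6 were counted as separate samples, though this measure cannot show separate animals or cell preparations.

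Members, roles and lists were chosen with earlier results of these data known. Values in full are given for catalytic subunits, activators, Psmf1, Psmg1 to Psmg4, called members and the highest and lowest log2 fold change in each role, and in each list of related genes for the 4 of lowest p, some by log2 fold change alone. One further list of related genes is not reported here. Psmd2 is named outside this rule, chosen after its values were seen. Positions are from GENCODE M21 and start sites and sequences from RefSeq, both by symbol. Coding identity was computed with Biopython 1.88 over the longest open reading frames of GENCODE transcripts.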

Additional observations from a re-analysis of the deposited data

How the results depend on the processing

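The 5 inducible genes kept a negative log2 fold change in all 16 alternatives, but which of them passed 0.05 depended on the analysis. Against 3 members called lower by edgeR, 1 (2.13%) was called with library totals, limma-voom, no count filter and each of the 3 FPKM fits. The shares of all genes called lower there were 7.21%, 5.58%, 5.73% and, in the FPKM fits, 6.03%, 6.83% and 8.26%. DESeq2 called 6 members lower (12.8%), where 15.9% of all genes were. Leaving out each library in turn gave 0 to 6 members lower. The count was 0 without Cre 1, Cre 2, flox 1 or flox 2, where no gene of the whole table was called. There 3 to 5 members were lower at an unadjusted edgeR p below 0.05, a share not counted for all genes. It was 1 without Cre 3, a share of 2.13% where 3.91% of all genes were lower, and 6 without flox 3, a share of 12.8% where 18.8% of all genes were lower. DESeq2 and the 3 FPKM fits called 1 member higher (2.13%), Psmd1, where edgeR called 0. Of all genes, 13.4% were called higher by DESeq2 and 8.45%, 9.31% and 12.2% in the FPKM fits. To look for pairing, Cre and flox libraries were correlated across genes after each gene's group mean was subtracted from its log2 CPM. In these deviations same-numbered libraries had correlations of -0.03, -0.10 and -0.06, and 0 of 6 libraries correlated best with its own number. Pairing by replicate number was thus not seen, but weak correlations cannot exclude it. With the numbers as a replicate block 0 members, and 0 of all genes, were called.

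The members' median log2 fold change was 0.14 with library totals and 0.15 (0.146 or 0.148) in the FPKM fits, which carry no composition factor. With library totals, log2(FPKM + 1), log2(FPKM + 0.1) and a mean FPKM of at least 1, the sign turned for 14 members, none over 0.15 in either sign. Among the members given with full values these were Psma4 (0.056, 0.058, 0.058 and 0.058), Psma8 (0.12, 0.066, 0.10 and 0.066), Psmb3 (0.11, 0.11, 0.11 and 0.11), Psmb5 (0.053, 0.049, 0.050 and 0.049) and Psmf1 (0.055, 0.055, 0.060 and 0.055). The other 9 were Psma1, Psma2, Psma6, Psmb1, Psmb4, Psmc3, Psmc5, Psmd6 and Psmd13, and the remaining fits turned 1 to 8 members each. Psmd4 stood at -0.00041 with RLE factors, -0.00042 with DESeq2, -0.00054 with limma-voom and -0.00053 with the block. Leaving out each library gave -0.14 to 0.13 for Psma8, -0.16 to 0.0039 for Psmf1, -0.056 to 0.085 for Psmd4 and -0.048 to 0.14 for Psmd9. The cause of these turns was not tested. None of the 7 genes with values here was called in any alternative.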
